A study of Mus musculus with 2 samples.

Results

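Contacts of the D cluster and of intergenic control region 1 (IGCR1) in Igh, the immunoglobulin heavy chain locus, were examined as a window, chr12:114667096-114735000 in mm9, in 5C contact maps of activated splenic B cells. In 5C, chromatin is fixed and digested (here with HindIII), neighbouring ends are joined, and sequencing counts how often a fragment with a forward primer was joined to one with a reverse primer. Every fragment whose midpoint lies in the window was taken, with all its forward-reverse pairs at least 10 kb apart between midpoints. This gave 8 fragments (4 forward and 4 reverse) of the 206 probed, and 792 pairs of the 10415 at that distance across Igh. Of these pairs, 204 had a partner on the constant side of the window, 580 a partner on the V side, and 8 lay inside the window. A further 16 pairs under 10 kb were left out. The window was set by position, not by contact values, although earlier results of these data were known when it was chosen. It was set to run from about the J end through the D segments to DFL16.1 and IGCR1. No mm9 annotation was used here, so no single fragment is placed on a named element.

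Both maps came from 1 group: CD43-negative splenic B cells of C57Bl/6 mice, cultured for 40 hours with LPS and IL4 (10 ng/ml of IL4). The 2 libraries are called biological replicates in the design text, which does not say how many mice each came from, and no untreated or mutant group was analysed here. An exact two-sided sign permutation over 2 replicates cannot go below p = 0.5, so differences between sides are given with the SD of the 2 replicates and no test over samples. Total counts were 14503618 and 17658603. Gene desert pairs, a control region of the design, were not analysed here.

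Igh is assembled in developing B cells by V(D)J recombination, in which a D segment is first joined to a J segment and a V segment is then joined to that DJ unit. IGCR1, between the V segments and the D cluster, binds CTCF and is known as a boundary that keeps early recombination within the D and J segments. Enhancers sit at both ends of the constant genes: Eμ close to the J segments, and the 3' regulatory region, needed for class switching, beyond Igha. Mature B cells carry rearranged alleles from which the DNA between the joined segments is gone. In a bulk map, fewer copies of a fragment and fewer contacts per copy cannot be told apart, and this holds for every level below. Distances and expected counts were taken from mm9 positions, although fragments on either side of a deletion lie closer together on rearranged alleles. How far this alters ratios with V-side partners was not tested.

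The window was thinly represented among the contacts. Its pairs were 7.60% of all pairs at least 10 kb apart but held 2.52% of their counts in replicate 1 and 1.70% in replicate 2. The median window pair had 28 counts in replicate 1 and 42 in replicate 2, against 40 and 71 over all pairs. A count of 28 has a 95% exact Poisson interval of 18.6 to 40.5, and a count of 42 one of 30.3 to 56.8. Counts of 0 occurred in 56 window pairs in replicate 1 and 5 in replicate 2. Intervals cover counting error only, because PCR products are not independent molecules.

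Within the window, reverse 83 had the highest contact level, and the other fragments were low in at least 1 replicate. For each replicate a smooth curve of counts on distance gave the expected count, and levels are given as the ratio of observed to expected counts. The curve follows mean counts, so most ratios are below 1. Forward fragment 82 (chr12:114667096-114667886), at the J end, had a median ratio over its 103 pairs of 0.373 in replicate 1 and 0.192 in replicate 2, ranking 53 and 90 of 98 forward fragments. Reverse fragment 83 (chr12:114667887-114670119), next to it, had the highest level of the window, with medians of 0.845 and 0.519. It ranked 25 and 44 of 108 reverse fragments. Forward fragment 84 (chr12:114670120-114672758) had 0.189 and 0.209, and reverse fragment 85 (chr12:114672759-114675715) had 0.169 and 0.167. These values were about level between replicates, unlike those of forward 82 and reverse 83, which were lower in replicate 2.

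Forward fragment 86 (chr12:114675716-114676753) had 0.0615 and 0.120, the lowest forward fragment of the window in both replicates. Reverse fragment 90 (chr12:114679904-114686567) had 0.235 and 0.261, and forward fragment 91 (chr12:114686568-114691293) had 0.118 and 0.174. Reverse fragment 94 (chr12:114722112-114723013), alone in the upper part of the window after an unprobed gap of 30.8 kb, had 0.0504 and 0.189. Its median count was 6 in replicate 1 and 33.5 in replicate 2, so its ratios rest on few counts in replicate 1. Over all Igh fragments the median of such medians was 0.406 and 0.403 for forward fragments and 0.371 and 0.398 for reverse fragments. In both replicates only reverse 83 lay above that level. These levels include the efficiency of each primer, which was not measured separately.

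Fragments inside the window contacted each other little for their distance. The 8 pairs within the window, 11.8 to 55.1 kb apart, had ratios from 0.00126 to 0.253 in replicate 1 and from 0.0105 to 0.174 in replicate 2. Forward 91 with reverse 83, 19.9 kb apart, was the highest, with 1002 and 1388 counts. Forward 86 with reverse 94, 46.3 kb apart, was the lowest, with 3 and 50 counts. Division by the mean ratio of each primer, repeated 50 times (primer correction), gave a median of 0.606 and 0.501 over the 8 pairs. This compares with 0.323 and 0.373 over all Igh pairs of 10 to 50 kb, so corrected levels inside the window were not low for that distance. The 8 pairs share fragments and are not independent.

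Which side of the locus the window contacted more depended on the primer correction. That correction divides by the mean ratio of each fragment, which holds its own contact level as well as the efficiency of its primer, and these cannot be told apart here. Up to 375 kb, the farthest constant-side pair, the median ratio was 0.160 and 0.117 on the constant side (204 pairs) and 0.0962 and 0.120 on the V side (63 pairs). The log2 difference, constant over V, was 0.73 in replicate 1 and -0.037 in replicate 2, a mean of 0.35 ± 0.55 (SD, n = 2), which does not exceed the spread between replicates. Without forward 82 the mean was -0.016. After primer correction the medians were 0.331 and 0.303 on the constant side and 0.579 and 0.677 on the V side. The corrected difference was -0.98 ± 0.25, with V-side partners higher in both replicates. The sides were not matched in distance here. At 10 to 50 kb lay 35 constant-side pairs, with low corrected medians of 0.106 and 0.102, and 1 V-side pair. Each fragment had only 7 to 9 V-side pairs up to 375 kb. By fragment, 5 of the 8 were higher on the V side in both replicates after correction, 0 were higher on the constant side in both and 3 split. Without correction 2 were higher on the V side, 4 on the constant side and 2 split.

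Constant-side contacts of the window were low beside contacts among the constant-side fragments themselves. At the same distances, pairs with both fragments on the constant side had median ratios of 0.601 and 0.423 (639 pairs), and pairs with both on the V side 0.141 and 0.224 (1343 pairs). After correction these were 0.453 and 0.480, and 0.413 and 0.516. The deficit of the window toward the constant side was largest at short range. Between 10 and 50 kb the corrected median was 0.106 and 0.102 over 35 window pairs with constant-side partners, against 0.355 and 0.414 for pairs within the constant side. Between 50 and 100 kb it was 0.240 and 0.230, and V-side partners of the window had 0.635 and 0.652 over 10 pairs. Between 100 and 200 kb it was 0.363 and 0.398, against 0.523 and 0.612 on the V side. Without correction the order in this band was the reverse in both replicates. The constant side had 0.245 and 0.223 and the V side 0.0560 and 0.103. Between 50 and 100 kb uncorrected ratios were higher on the V side, with 0.0925 and 0.0789 against 0.0705 and 0.0732. From 200 to 330 kb the replicates differed in direction after correction, with 0.442 and 0.375 on the constant side and 0.397 and 0.698 on the V side.

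**Figure D1:**
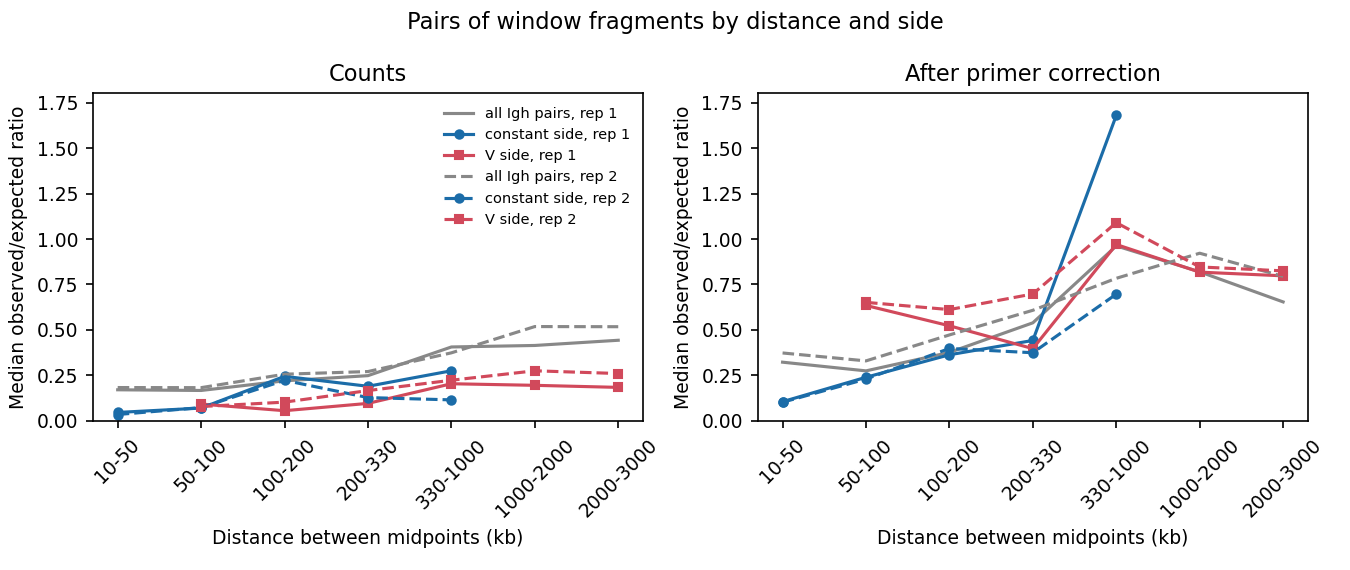
Median observed over expected ratio (y axis) of window pairs by distance between midpoints (x axis, kb), for constant-side and V-side partners and for all Igh pairs, in counts and after primer correction. Solid lines are replicate 1 and dashed lines replicate 2, and bands with under 9 pairs are left out. After correction the V side lies above the constant side in both replicates from 50 to 200 kb. In counts the constant side lies above the V side in both replicates from 100 to 200 kb. The constant-side point beyond 330 kb rests on 9 pairs.

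A comparison against shared partners leaves differences between partner primers out of the contrast between fragments of one orientation. The 8 window fragments were set beside the 8 probed fragments next to them on the constant side (74 to 81) and the 8 next to them on the V side (103 to 131), all read against partners outside these 24 fragments. Fragments of one orientation share these partners, except that forward 74 and 76 lack 2, and reverse 75 and 77 lack 1, of the constant-side partners. For each fragment, the mean log2 ratio (pseudocount of 1) over V-side partners within 500 kb of the V-side neighbours was subtracted from that over constant-side partners. The fragment's own primer cancels in this difference, but only in part where counts are close to the pseudocount. Median counts with near V-side partners were as low as 3 in replicate 1 (reverse 77). The comparison was chosen after the values had been seen.

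The balance was shifted away from the constant side in the window, against constant-side neighbours of the same orientation. The partner primers do not cancel within a value, so its sign has no meaning of its own, and values are set against each other only within an orientation. Among forward fragments the mean was 1.04 ± 0.18 (SD, n = 2 replicates) for the constant-side neighbours and -0.28 ± 0.22 for the window, a difference of -1.33 ± 0.40. Forward 80, the last forward fragment before the window, had 1.08 and 0.96, and forward 82, the first in it, -0.32 and -0.07. In both replicates 3 of the 4 forward window fragments lay below all 4 forward neighbours. Forward 86 lay below them in replicate 2 and at 0.65 in replicate 1, where forward 78 had 0.62.

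The difference ran the same way among reverse fragments. Their mean was 1.59 ± 0.04 for the constant-side neighbours and -0.68 ± 0.15 for the window, a difference of -2.27 ± 0.12. Reverse 81 (chr12:114664824-114667095), which ends where the window begins, had 0.74 and 1.10, and reverse 83 had -1.30 and -1.24. Reverse 90 was the lowest reverse fragment, with -1.75 and -1.47. Over both orientations the window differed from its constant-side neighbours by -1.80 ± 0.26. With V-side partners farther away in place of the near ones the difference was -0.86 ± 0.15. The neighbours then had a mean of 0.24 ± 0.43 and the window -0.62 ± 0.58, so the levels themselves moved with the choice of V-side partners.

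Reverse 94, the single probed fragment in the upper part of the window, differed from the other reverse window fragments. It had 1.33 and 0.37, where these 3 lay between -1.75 and -0.56 in replicate 1 and between -1.47 and -0.81 in replicate 2. In replicate 1 it was within the range of the reverse constant-side neighbours, and in replicate 2 below all 4 of them. Its value rests on 6 near V-side partners, with a median of 6 counts in replicate 1 and 52.5 in replicate 2. Without reverse 94 the difference of the window from its constant-side neighbours was -1.99 ± 0.19. Among the V-side neighbours, forward 103 (chr12:114747437-114750051) had -0.28 and -0.34, and reverse 106 (chr12:114751970-114755042) -0.69 and -0.17. These were the lowest of their orientation there. Both lay within the range of the window fragments of their orientation in both replicates, so such values were not limited to the window. For reverse 106 in replicate 2 this rested on reverse 94 alone, since the other 3 lay between -1.47 and -0.81. For forward 103 in replicate 1 it rested on forward 86 alone, at 0.65, with the others at -0.31 or lower. The forward V-side neighbours had a mean of 0.44 ± 0.31 and the reverse ones 1.02 ± 0.78.

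**Figure D2:**
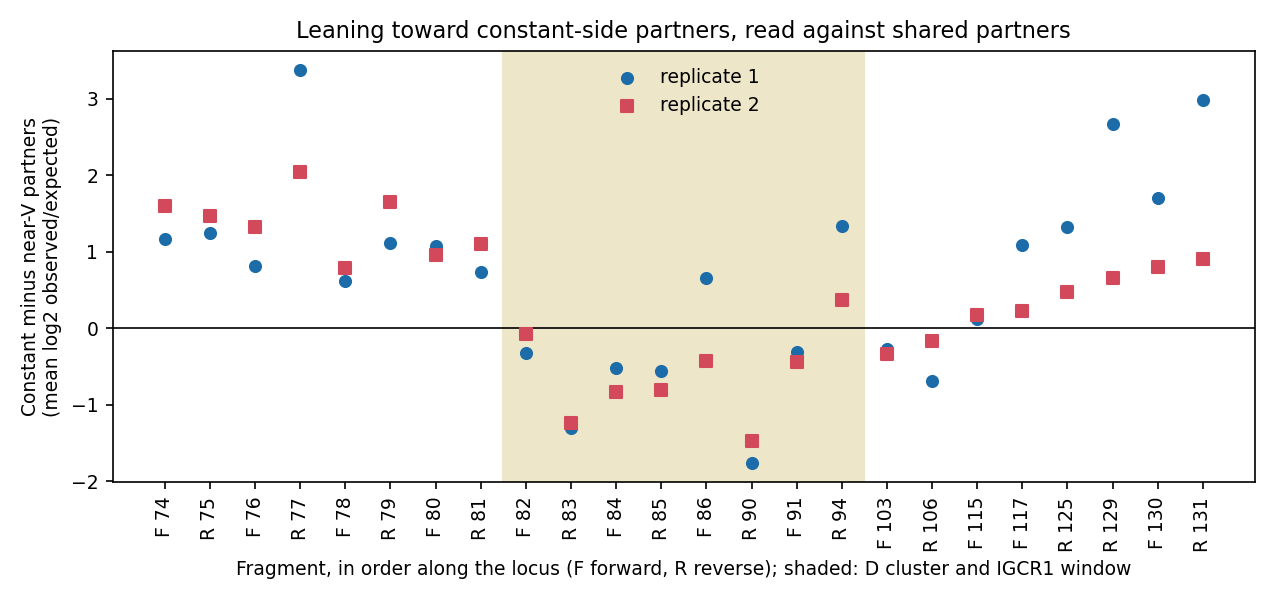
Difference between constant-side and near V-side partners (y axis, mean log2 observed over expected ratio) for 24 fragments in order along the locus (x axis), each read against outside partners; circles are replicate 1, squares replicate 2, and shading marks the window. Values are to be compared within an orientation, not with 0: forward fragments go from 1.08 and 0.96 at forward 80 to -0.32 and -0.07 at forward 82, and reverse fragments from 0.74 and 1.10 at reverse 81 to -1.30 and -1.24 at reverse 83.

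On the constant side, the highest uncorrected ratios of the window fell mostly in 1 section. Fragments 28 to 38 (chr12:114465909-114510164), 9 fragments 163 to 253 kb from the window fragments, held the highest constant-side ratio of 7 of the 8 window fragments; the exception was forward 86, whose highest was reverse 15. After primer correction the section held the highest constant-side pair of 3 of the 8 (forward 82, forward 84 and reverse 94), and for the other 5 it lay outside. The section was delimited after these values had been seen. Its 36 pairs with the window had median ratios of 0.536 and 0.444, against 0.119 and 0.0999 for the 168 other constant-side pairs. After primer correction these were 0.540 and 0.651, against 0.290 and 0.254. The 168 other pairs include nearer ones, so the groups are not matched in distance. All Igh pairs had corrected medians of 0.376 and 0.473 at 100 to 200 kb, and 0.539 and 0.608 at 200 to 330 kb. Their uncorrected medians were 0.220 and 0.257, and 0.249 and 0.271. The section was thus above both bands in counts, but close to the farther band after correction. Forward 82 with reverse 33 (chr12:114486613-114491122), 179 kb apart, had 3101 and 2274 counts, a ratio of 4.18 ± 1.93 (SD, n = 2) and corrected ratios of 1.26 and 1.93. Forward 91 with the same partner had 665 and 726 counts and 1.21 ± 0.24, and forward 84 had 681 and 811 counts and 1.14 ± 0.155.

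After correction the level of reverse 29 was highest among constant-side partners. Reverse 29 (chr12:114474053-114474922) had a median corrected ratio of 1.56 and 1.14 over 4 window fragments, and its pair with forward 84 had 2.28 and 2.39. Reverse 33 had 0.841 and 0.833, and reverse 35 (chr12:114493852-114496828) 0.838 and 0.856. Beyond the section, reverse 15 had 0.711 and 1.05. The nearest reverse fragments outside the section were lower, with 0.227 and 0.233 for reverse 24 on the far side and 0.408 and 0.460 for reverse 39 on the near side. Forward partners of the section, which pair with the reverse window fragments, showed it less after correction, with 0.245 and 0.169 for forward 28 (chr12:114465909-114474052) and 0.312 and 0.443 for forward 31 (chr12:114477117-114480873). The nearest forward fragments outside, forward 25 and forward 40, had 0.393 and 0.165, and 0.120 and 0.309, so corrected levels of forward partners overlapped across the far edge of the section. Reverse 94 stood apart among them. It had 399 and 647 counts with forward 31, a ratio of 1.10 ± 0.04 and corrected ratios of 2.90 and 1.77. With forward 28 it had 218 and 1283 counts. There the replicates differed in ratio, with 0.617 and 2.30, but not after correction, with 1.37 and 1.40.

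By group mean, the level with this section relative to other constant-side partners was highest just below the window, lower in it and lowest above it. Within each fragment, the mean log2 ratio to the section minus that to other constant-side partners was 3.69 and 4.10 for reverse 81 and 3.97 and 4.13 for forward 80, just outside the window. It was 3.02 and 2.76 for forward 82, 1.97 and 2.09 for reverse 83 and 1.72 and 2.15 for forward 84. Among the other window fragments it lay between 1.72 and 2.35 in replicate 1 and between 1.83 and 2.53 in replicate 2, with the replicate 2 maximum at reverse 94. By orientation the means were 3.12 ± 0.12, 2.19 ± 0.01 and 1.05 ± 0.17 for the forward fragments of the constant-side neighbours, the window and the V-side neighbours. Reverse fragments gave 3.33 ± 0.28, 2.01 ± 0.12 and 1.44 ± 0.03. The 3 groups of each orientation did not overlap in their means between replicates, but single fragments did. Forward 82 lay above forward 74 of the constant-side neighbours, which had 2.72 and 2.38. Reverse 125 of the V-side neighbours had 1.97 and 1.85, against 1.75 and 1.87 for reverse 85 in the window. Partner primers are shared within an orientation, so levels are comparable along the locus but not with 0.

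**Figure D3:**
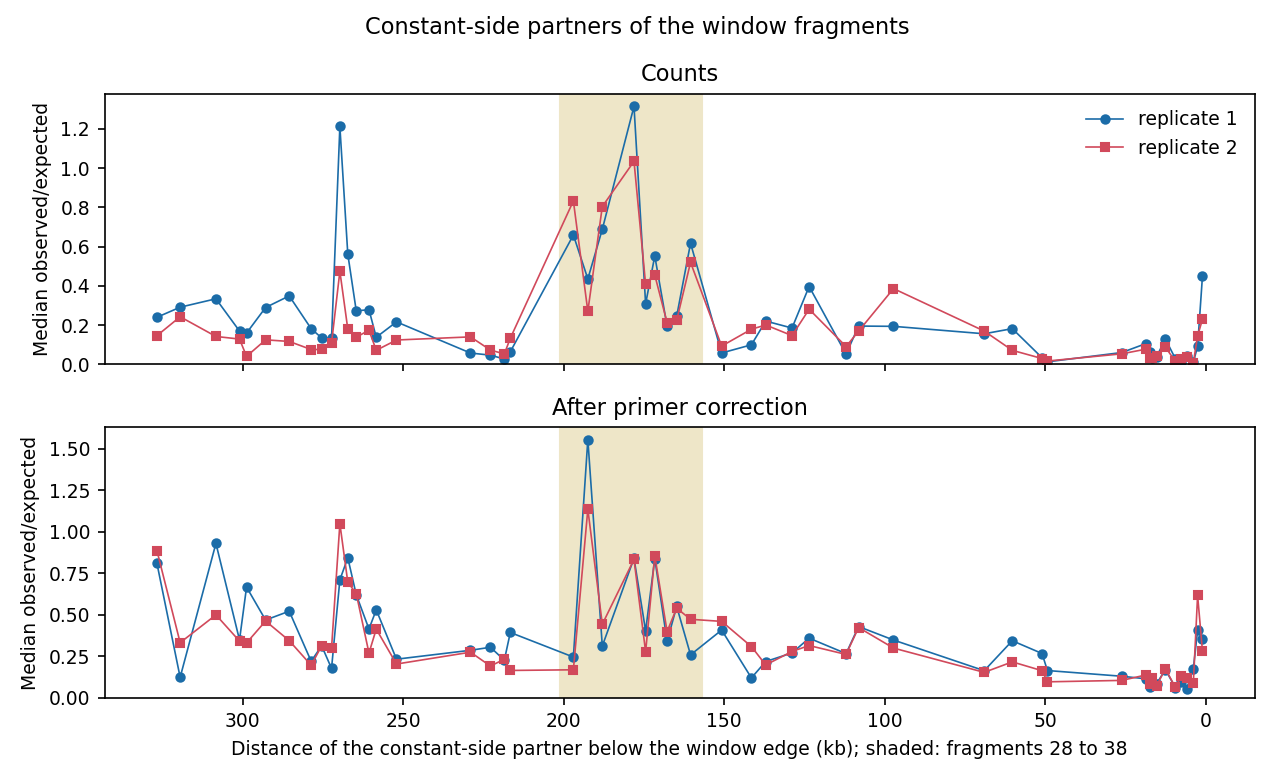
Median observed over expected ratio (y axis) of each constant-side fragment with the window fragments of the opposite orientation, by distance below the window edge (x axis, kb), in counts and after primer correction; circles are replicate 1, squares replicate 2, and shading marks fragments 28 to 38. In counts reverse 33, in the shaded section, is highest in both replicates with 1.31 and 1.03, and replicate 1 has a further peak of 1.21 at reverse 15.

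Contacts with the bordering fragments varied. Forward 91 with reverse 81, the fragment bordering the window on the constant side, had 2388 and 2411 counts at 23.0 kb, a ratio of 0.487 ± 0.228, and corrected ratios of 0.422 and 0.366. All Igh pairs of 10 to 50 kb had medians of 0.171 and 0.183, and corrected 0.323 and 0.373, so this pair was above the median in counts. Forward 86 with reverse 81 had 0.193 ± 0.084 at 10.3 kb. On the other side, reverse 94 with forward 103, 26.2 kb apart across the upper gap, had 118 and 243 counts and a ratio of 0.0348 ± 0.0007, with corrected ratios of 0.730 and 0.304. Reverse 85 with forward 103, 74.5 kb apart, had 2328 and 4156 counts. Its ratio of 1.60 ± 0.05 was the highest of reverse 85, and its corrected ratios were 9.83 and 11.3. The neighbouring reverse 83 and reverse 90 had corrected ratios of 0.285 and 0.501, and 0.213 and 0.121, with forward 103, so the high value lay on a single pair.

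Among single pairs with V-side partners, 2 passed the calling threshold. A pair was called when its Weibull-fitted, Benjamini-Hochberg adjusted q across all 10415 pairs was under 0.01 in both replicates. The rule called 2 of 792 window pairs (0.253%) and 25 of all pairs (0.24%), so the window's share is close to the background. After primer correction it called 2 of 792 as well, against 32 of all pairs (0.307%). With primer means and curve taken without called pairs it called 1 of 792, against 0.182% of all pairs. Both called pairs in counts, and both after correction, joined the window to V-side fragments.

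High ratios below the calling threshold were also unequal between the sides. In counts, 40 of 792 window pairs had a ratio above 1 in both replicates, against 15.7% of all pairs, and 13 a ratio above 2, against 5.71%. After primer correction 169 of 792 (21.3%) were above 1, against 20.3% of all pairs, and 40 (5.05%) above 2, against 3.34%. By side, corrected ratios were above 1 in both replicates for 15 of 204 constant-side pairs (7.35%) and 154 of 580 V-side pairs (26.6%). Pairs with both fragments on the constant side reached this in 13.5% of cases and pairs with both on the V side in 15.8%. In counts 5 of 204 constant-side pairs (2.45%) and 35 of 580 V-side pairs (6.03%) were above 1 in both replicates. Pairs within the constant side reached this in 23.5% and pairs within the V side in 10.3%. V-side window pairs were thus above pairs within the V side after correction and below them in counts. The sides differ in distance, since no constant-side pair is farther than 375 kb.

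Reverse 83 held 7 of the 10 highest ratios of the window. With forward 842 (chr12:117325410-117328516), 2658 kb away at the far V end, it had 2178 and 2123 counts and a ratio of 22.9 ± 0.57, a called pair. Its corrected ratios were 8.60 and 16.8, and the corrected q was 0.017 in replicate 1, above the threshold. Neither neighbour shared the level. Forward 837 and forward 850, 8.25 and 18.9 kb to either side, had ratios of 1.09 and 0.33, and 1.87 and 1.08, with reverse 83, and forward 842 had 2.79 and 1.28 with reverse 81 and 0.41 and 0.13 with reverse 85. With forward 526, 1614 kb away, reverse 83 had 556 and 898 counts, a ratio of 9.37 ± 0.81 and corrected ratios of 7.14 and 13.7, called after correction and not in counts. The flanking forward 517 and forward 542 had corrected ratios of 0.31 and 0.58, and 0.99 and 0.015.

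Several other partners of reverse 83 had high ratios in both replicates that were higher in replicate 1. Forward 415 had a ratio of 15.1 in replicate 1 and 2.98 in replicate 2, and forward 272 had 11.3 and 3.44. Both passed the threshold in replicate 1 and not in replicate 2; in replicate 1 taken alone 4 window pairs passed, against 0.432% of all pairs. Forward 233 had 1018 and 1331 counts and 7.73 ± 4.61. Forward 412, next to forward 415, was nearly level between replicates with 269 and 251 counts and corrected ratios of 3.83 and 3.52. Forward 415 was far higher with reverse 81, the neighbour of reverse 83 outside the window, at 86.8 and 34.0.

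The other called pair joined reverse 90 to the middle of the V segments. Reverse 90 with forward 329 (chr12:115586578-115589686), 905 kb apart, had 542 and 612 counts, a ratio of 8.13 ± 1.53 and corrected ratios of 10.1 and 11.2. It was called in counts and after correction, but not at lowess spans of 0.1 or 0.6 or at q under 0.001. Here neighbours were raised too. Forward 324 and forward 334, 17.1 and 11.5 kb to either side, had corrected ratios of 2.41 and 2.05, and 2.35 and 2.74, with reverse 90. Forward 329 with reverse 85 and reverse 94 had 0.50 and 0.97, and 0.86 and 0.96.

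High corrected ratios in the same stretch of V-side fragments were also seen with forward window fragments, but not more than with the constant-side neighbours. In the 100 kb bin that holds them the window had corrected medians of 1.16 and 1.23 and the neighbours 1.32 and 1.30, with 25 and 31 of 64 pairs above 1 in both replicates. Reverse 339 (chr12:115616163-115618624), 928 to 950 kb away, had the highest median corrected ratio of all partners by the mean of both replicates, 2.81 and 2.84 over 4 window fragments. It gave 7.12 and 5.80 with forward 86 on 133 and 158 counts, 3.12 and 3.58 with forward 84 and 2.49 and 2.11 with forward 91, but 0.72 and 0.39 with forward 82. Reverse 342 (chr12:115620492-115621691) had a median of 2.54 and 2.16, and its pair with forward 82 had 6.59 and 5.94 on 82 and 52 counts. High medians were not limited to this stretch: reverse 654, 2024 to 2046 kb away, had 3.20 and 1.75, and reverse 410, 1118 to 1139 kb away, had 2.26 and 2.46. These 4 partners were picked for their values. No window pair of theirs passed the threshold in both replicates, in counts or after correction.

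The V-side profile of the window was set beside that of its constant-side neighbours. In bins of 100 kb above the window, corrected medians of the window were higher than those of fragments 74 to 81 in both replicates in the first 6 bins of 6. Over these 600 kb the window had 0.825 and 0.702, and the neighbours 0.492 and 0.436 (104 pairs each, with the same partners). Between 1000 and 1300 kb the window was lower, with 0.816 and 1.06 for the window and 1.34 and 1.38 for the neighbours (84 pairs each), and the window was lower in both replicates in 3 of 3 bins. Over all 26 bins with pairs the window was higher in both replicates in 11 and lower in both in 9. On uncorrected ratios the first 600 kb gave 0.157 and 0.159 for the window and 0.202 and 0.153 for the neighbours, and 1000 to 1300 kb gave 0.112 and 0.216 against 0.704 and 0.681. Correction sets the mean level of each fragment, so a group that is higher in some ranges has to be lower in others, and the change of order is no separate result. Both ranges were chosen after the values had been seen.

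**Figure D4:**
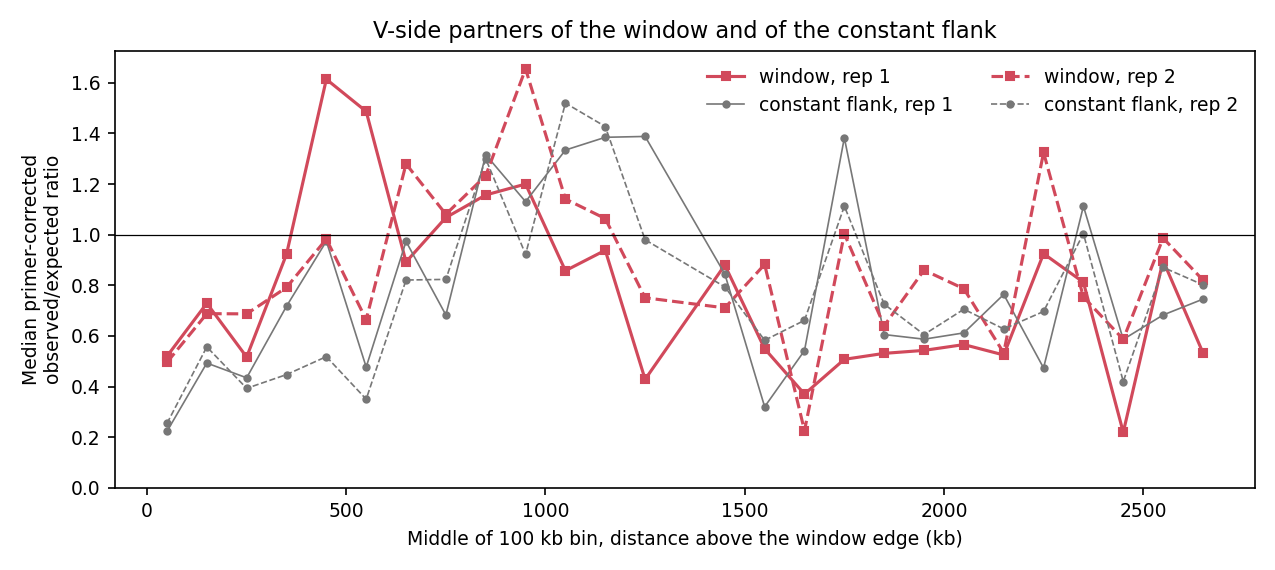
Median primer-corrected observed over expected ratio (y axis) of V-side partners in 100 kb bins by distance above the window edge (x axis, kb), for the 8 window fragments and the 8 constant-side neighbours; solid lines are replicate 1 and dashed lines replicate 2. The window lies above the neighbours in both replicates in the first 6 bins and below them in both between 1000 and 1300 kb.

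Pairs that bridged the window were set beside pairs on one side of it. Within 250 kb of the window on both sides, 241 pairs joined a constant-side to a V-side fragment, with a median ratio of 0.30 ± 0.018. Their distances run to 538 kb, whereas no pair within the constant side reaches 330 kb, so these groups are not matched in distance. Pairs within the constant side had 0.563 ± 0.149 and pairs within the V side 0.218 ± 0.0519. After primer correction bridging pairs had 0.696 ± 0.055, and the others 0.522 ± 0.0435 and 0.575 ± 0.0060. Corrected medians of all pairs rise with distance, from 0.275 and 0.330 at 50 to 100 kb to 0.962 and 0.784 at 330 to 1000 kb. Within 100 kb of the window, where all groups span 82.8 to 247 kb, 42 bridging pairs had corrected medians of 0.242 and 0.341. These medians were below those within the constant side, 0.492 and 0.562, and within the V side, 0.368 and 0.499, in both replicates. Corrected means of bridging pairs were 0.612 and 0.836, above 0.482 and 0.669 within the V side. Within the constant side the corrected means were 0.771 and 0.891. In counts the bridging pairs had medians of 0.125 and 0.111, against 0.657 and 0.521 within the constant side. Medians within the V side were 0.119 and 0.222, so bridging pairs were below them in replicate 2 only. Mean ratios in counts were 1.29 and 1.08 for bridging pairs and 0.444 and 0.635 within the V side. Within the constant side they were 2.24 and 1.77. The order of bridging and V-side pairs thus depended on the use of medians or means.

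The replicates ranked the window's pairs about as they ranked all pairs. Across constant-side window pairs, Spearman's rho between replicates was 0.78 for ratios and 0.77 after correction (204 pairs). Across V-side pairs it was 0.67 and 0.47 (580 pairs), and over all Igh pairs 0.75 and 0.56. These are descriptions across pairs that share fragments and libraries. V-side values of single pairs after correction are therefore the least repeatable of those given.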

How the data were processed

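Per the file headers, each replicate has 1 my5C table, deposited as raw counts of ligation products per primer pair after a step named transpurge. Novoalign and mm9 come from the submitters' processing notes, with versions not given in the sources used here. Expected counts came from lowess (span 0.3) on log10 midpoint distance over 10415 pairs, separately by replicate, and lowess of the squared residuals gave the spread. Shifted z values were fitted with a Weibull distribution, and q is its upper tail after Benjamini-Hochberg adjustment. Both curves had a minimum of 0.001 of the overall mean or SD; this minimum and exact lowess were settled after provisional calls had been seen. Primer correction used 50 rounds. Named pairs are those called, the 10 highest by ratio and by corrected ratio, the highest of each window fragment on each side, and pairs with bordering fragments; others are stated as picked or as neighbours. The window, comparisons and lists were chosen with earlier results of these data known. Pair calling and the side difference were run on simulated data, with outcomes not given here. The comparisons with neighbouring fragments, the section and bridging pairs were not simulated. Software was SciPy 1.17.1 and statsmodels 0.14.6, with NumPy 2.4.6 and pandas 2.3.3 under Python 3.11.15, and matplotlib 3.10.9. No mm9 sequence was at hand, so none is shown.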

Additional observations from a re-analysis of the deposited data

How the results depend on the processing

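No paired analysis was possible because both replicates belong to 1 group and no groups were compared. The side difference up to 375 kb (0.35) turned under primer correction (-0.98), with primer means and curve taken without called pairs (-0.93), over all distances (-0.62) and without forward 82 (-0.016), and ranged from -0.037 to 0.73 without 1 replicate. Its value was between 0.11 and 0.73 under the other settings. In the 100 to 200 kb band (1.62) these 2 corrections gave -0.57 and -0.46, and in the 200 to 330 kb band (0.30) -0.37 and -0.79, with -0.38 to 0.98 without 1 replicate. The 50 to 100 kb band (-0.25) moved to -1.45 and -1.40. The cause was not tested. Called window pairs (2) numbered 1 with primer means without called pairs, 1 at lowess spans of 0.1 and 0.6 and at q under 0.001, 0 with the log2 expected value, and from 2 to 4 without 1 replicate. The V-side median at 330 to 1000 kb (0.214) became 1.03 and 1.01 under the corrections, 0.184 with the 0.6 span and 0.547 with the log2 expected value. The median of bridging pairs (0.30) became 0.696 and 0.862, 0.343 and 0.268 at spans of 0.1 and 0.6, 1.13 on the log2 scale, and 0.118 and 0.438 with flanks of 100 and 500 kb. Reverse 83 with forward 842 (22.9) had 12.7 and 16.6 under the corrections, 24.9 and 23.8 at spans of 0.1 and 0.6 and 49.6 on the log2 scale. The difference from the constant-side neighbours (-1.80) was -0.86 with far V-side partners, -1.21 against the V-side neighbours, -1.49 with medians, -1.33 and -2.27 for forward and reverse fragments alone, and -1.98 to -1.61 without 1 replicate; these settings were chosen after the data were seen. Of 308 further values of single named pairs, 133 moved by over the SD between replicates and 175 did not.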
